A study of Mus musculus with 6 samples.

Results

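The genes described here are 9 products of the secretory cells that line the airways. They are *Scgb1a1*, *Scgb3a1*, *Scgb3a2*, *Cyp2f2*, *Cbr2*, *Bpifa1*, *Muc5b*, *Aldh1a1* and *Reg3g*. They were found by gene symbol, with 9 of 9 present among the 54532 genes counted, and all 9 had enough reads to be tested. RNA was taken from lung tissue of GR+/+ mice and GRdim/dim mice. The GRdim/dim mice carry a point mutation in both copies of the glucocorticoid receptor (GR) gene that impairs dimerization of the receptor. All mice had a mixed 129/SvEv x C57BL/6 background, were 10 to 16 weeks old, and went through hemorrhagic shock (HS), with the mean arterial pressure held to 35 mmHg for 1 h, and then 4 h of resuscitation under anesthesia and ventilation. No lung without HS was sequenced, so levels describe lungs after HS, and the mutation was present in every cell of the mouse. Each genotype had 3 libraries, 1 per mouse. The comparison asks which airway secretory transcripts differ between the genotypes after HS.

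Club cells are dome-shaped secretory cells of the conducting airways. They release secretoglobins into the airway fluid, carry cytochrome P450 enzymes that process inhaled chemicals, and can renew the airway lining after injury. Goblet cells and gland cells add gel-forming mucins, and together with antimicrobial proteins these secretions make up the mucosal defence of the airway. Glucocorticoids act on this epithelium through GR, which binds DNA as a dimer at palindromic response elements and also contacts DNA or other factors as a monomer.

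*Scgb1a1*, *Scgb3a2*, *Cyp2f2* and *Cbr2* had overlapping levels in the genotypes. *Reg3g*, *Scgb3a1*, *Muc5b* and *Aldh1a1* were lower in every GRdim/dim lung than in every GR+/+ lung. This grouping follows the values and is not a split by function. Mean levels in GR+/+ lungs were 11.7 times those in GRdim/dim lungs for *Reg3g*, 2.11 times for *Scgb3a1*, 2.11 times for *Muc5b* and 1.42 times for *Aldh1a1*. The ninth gene, *Bpifa1*, was low in 2 GRdim/dim lungs and within the GR+/+ range in the other.

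Levels are counts per 1000000 reads (CPM), with libraries scaled by the TMM method. Differences were tested with edgeR's quasi-likelihood test over 16568 genes, with Benjamini-Hochberg adjustment. Differentially expressed genes (DEGs) had to differ by more than 0.5 on the log2 scale, up or down, with an adjusted *p*-value below 0.05. By this rule 0 of the 9 genes were DEGs, where 28 of all genes tested were (0.169%). Before adjustment, 4 of the 9 had a *p*-value under 0.05 and were lower in GRdim/dim lungs (44.4%, against 4.68% of all genes tested) and none were higher (4.91% of all genes tested). DESeq2, the tool the study used, called 3 of the 9 lower (33.3%, against 0.879% of the 16150 genes it adjusted), namely *Reg3g*, *Scgb3a1* and *Muc5b*. The 3 libraries of each genotype did not overlap, with GRdim/dim lower, for 4 of the 9 genes (44.4%, against 7.05% of all genes tested). Over the 9 genes the median log2 fold change of GRdim/dim over GR+/+ was −0.51, with 5 lower and 4 higher, and over all genes tested it was 0.01. The genes were chosen with results of these lungs known, so these shares describe them and are no independent support. An exact permutation test of 1 gene over 3 against 3 lungs cannot give a *p*-value below 0.1.

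Total counts were 16361747 to 32082940 in GR+/+ and 15687734 to 24444604 in GRdim/dim libraries, and the 9 genes took 1.96% to 3.47% and 2.52% to 3.15% of them. *Nr3c1*, the gene that encodes GR, had 148 ± 12.2 CPM in GR+/+ and 143 ± 20.2 CPM in GRdim/dim lungs (SD, n = 3 each), which cannot check a point mutation. By *Xist* against Y-linked genes, GR+/+ replicate 1 and GRdim/dim replicates 1 and 3 were from males, which matches the numbers of each sex in the study's methods. Because the 4 genes without overlap were lower in every GRdim/dim lung, they were also lower within each sex. This follows from the lack of overlap and is no separate check on sex. Only 1 GR+/+ lung was from a male and 1 GRdim/dim lung from a female.

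Steroid receptors, FOXA and NKX2-1, and STAT factors are known regulators of airway secretory genes. Of the 6 genes matched to a promoter, the promoters of *Reg3g*, *Scgb3a1* and *Bpifa1* are shown for this reason. Each is the 250 bases before the RefSeq transcription start in GRCm38.p6, printed 5′ to 3′ on the gene's strand, with letters that matched a searched motif in capitals. The positions are chr6:78468875-78469124 on the minus strand for *Reg3g*, chr11:49663345-49663594 on the plus strand for *Scgb3a1*, and chr2:154142630-154142879 on the plus strand for *Bpifa1*.
Reg3g: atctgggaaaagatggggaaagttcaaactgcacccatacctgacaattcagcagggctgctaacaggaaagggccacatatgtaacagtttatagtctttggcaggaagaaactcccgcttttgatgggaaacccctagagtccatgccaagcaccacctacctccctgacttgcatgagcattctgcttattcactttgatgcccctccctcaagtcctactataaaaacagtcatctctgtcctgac
Scgb3a1: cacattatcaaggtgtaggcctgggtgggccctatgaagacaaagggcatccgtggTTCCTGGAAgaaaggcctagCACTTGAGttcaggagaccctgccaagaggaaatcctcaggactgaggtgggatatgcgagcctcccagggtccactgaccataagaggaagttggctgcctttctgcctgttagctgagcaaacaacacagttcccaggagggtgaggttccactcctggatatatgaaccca
Bpifa1: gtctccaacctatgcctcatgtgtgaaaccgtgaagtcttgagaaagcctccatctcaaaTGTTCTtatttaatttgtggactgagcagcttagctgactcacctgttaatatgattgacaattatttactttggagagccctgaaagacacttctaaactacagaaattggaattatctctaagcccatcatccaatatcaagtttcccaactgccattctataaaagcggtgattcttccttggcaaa

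Motifs were searched on both strands in windows of 300 bases, 250 before and 50 after each start, and 6 of the 9 genes had a window in the table. The full glucocorticoid response element (GNACA, 3 bases, TGTNC) was in none of their windows and in 0.475% of all 32851 windows. Its half-site AGAACA, which can lie within a full element, was in the windows of *Bpifa1* at base −190, where it lies on the opposite strand as TGTTCT, and of *Cyp2f2* at base 33, and in 19% of all windows. The STAT motif TTCNNNGAA was in the *Scgb3a1* promoter at base −194 as TTCCTGGAA, and in 8.3% of all windows. An NKX2-1 motif (CACTNNAG) was in the *Scgb3a1* promoter at base −174 as CACTTGAG and in *Cyp2f2* at base 9, and in 16% of all windows. The FOXA motif GTAAACA was in 3.65% of all windows and in none of these. The windows of *Reg3g*, *Cbr2* and *Aldh1a1* held none of the 5 motifs. A match is a run of letters and was not tested as a binding site.

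*Scgb1a1* (chr19:9083636-9087958; this and the other gene coordinates are in mm10, which is GRCm38) encodes the secretoglobin CC10, the main secreted protein of club cells and their defining marker. Its level was 13820, 17750 and 27510 CPM in GR+/+ replicates 1, 2 and 3, and 20000, 25410 and 23940 CPM in GRdim/dim replicates 1, 2 and 3. The GRdim/dim lungs lay within the GR+/+ range. The log2 fold change was 0.23 ± 0.29 (SE; 95% interval −0.41 to 0.87; adjusted *p* = 0.874, edgeR quasi-likelihood test). Per kb of gene length, *Scgb1a1* had the highest level of all protein-coding genes in GR+/+ lungs, and it took 1.39% to 2.70% of all counts in a library. This defining marker was thus abundant in every lung.

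*Scgb3a2*, on chromosome 18, encodes a secretoglobin of the airway lining. It had 230, 268 and 588 CPM in GR+/+ lungs and 223, 377 and 503 CPM in GRdim/dim lungs. The spread within each genotype was wide, and the genotypes overlapped. With all 6 libraries the log2 fold change was 0.02 ± 0.38 (SE; 95% interval −0.83 to 0.87; adjusted *p* = 0.994, edgeR), and its sign depended on which library was included.

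The enzyme genes *Cyp2f2* (chr7:27119909-27133660), a cytochrome P450 that activates naphthalene in club cells, and *Cbr2* (chr11:120729489-120732114), a carbonyl reductase, also had overlapping genotypes. *Cyp2f2* had 1024, 1340 and 1402 CPM in GR+/+ lungs and 1015, 1625 and 1397 CPM in GRdim/dim lungs. *Cbr2* had 2752, 3046 and 3640 CPM in GR+/+ lungs and 2452, 3205 and 4197 CPM in GRdim/dim lungs. In both genes the lowest library of all 6 was GRdim/dim replicate 1 and the highest was another GRdim/dim library. The log2 fold changes were 0.10 ± 0.23 (95% interval −0.42 to 0.62; adjusted *p* = 0.945, edgeR) for *Cyp2f2* and 0.06 ± 0.25 (95% interval −0.49 to 0.61; adjusted *p* = 0.969, edgeR) for *Cbr2*. The intervals do not show that the levels were equal, but they leave out a 2-fold change in either direction.

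*Aldh1a1* (chr19:20492715-20643462) encodes a retinaldehyde dehydrogenase that makes retinoic acid and clears aldehydes. Its level was 1446, 1688 and 1979 CPM in GR+/+ lungs and 1059, 1272 and 1262 CPM in GRdim/dim lungs. All 3 GRdim/dim libraries lay below the lowest GR+/+ library. On the log2 scale the fold change was −0.51 ± 0.21 (95% interval −0.97 to −0.05), and the edgeR *p* was 0.0323 before and 0.471 after adjustment. The adjusted *p* from DESeq2 was 0.263. The gene was not a DEG by either tool.

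**Figure D1:**
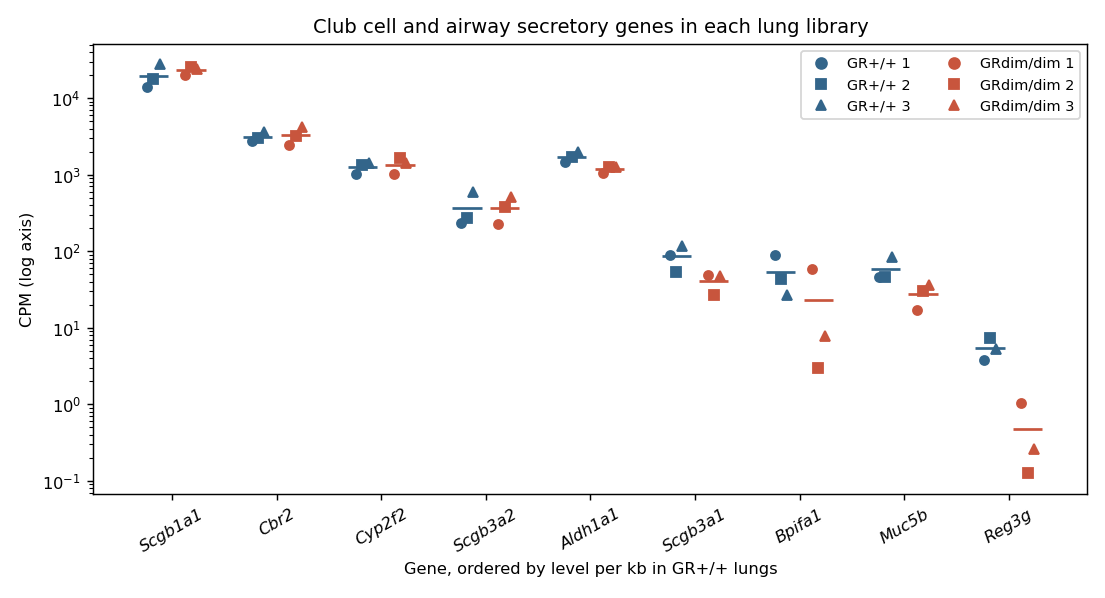
CPM of the 9 genes in each lung library on a log axis, with GR+/+ in blue, GRdim/dim in red, a marker shape for each replicate number and a line at the mean of each genotype. *Reg3g* ran from 3.83 to 7.43 CPM in GR+/+ and from 0.125 to 1.02 CPM in GRdim/dim lungs, while *Scgb1a1* overlapped.

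*Reg3g* (chr6:78466269-78468872) encodes a secreted C-type lectin that binds and kills Gram-positive bacteria, and epithelia are known to induce it through interleukin-22 and STAT3. It had the largest genotype difference of the 9 genes. GR+/+ lungs gave 64, 124 and 165 counts and GRdim/dim lungs gave 19, 3 and 4 counts. These correspond to 3.83, 7.43 and 5.24 CPM in GR+/+ lungs and to 1.02, 0.125 and 0.258 CPM in GRdim/dim lungs. Every GRdim/dim lung was below every GR+/+ lung, and GRdim/dim replicate 1 was the highest of its genotype. With the 3-count library, counting error alone gives an interval of 0.0257 to 0.364 CPM (95%, exact Poisson). The pooled counts of each genotype, 353 and 26, give a ratio of 12.2 with a 95% exact interval of 8.16 to 18.9 that covers counting error only.

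The log2 fold change of *Reg3g* was −3.56 ± 0.63 (95% interval −4.96 to −2.16). Its unadjusted *p* was 0.000188 and its adjusted *p* was 0.0714 in the edgeR test, just above the threshold. Without GRdim/dim replicate 1 the log2 fold change was −4.87 and the adjusted *p* was 0.0238, and *Reg3g* was then a DEG. DESeq2 gave an adjusted *p* of 3.3e-07 and called *Reg3g* in all 6 fits with 1 library left out. By edgeR *p*-value the gene ranked 43 of the 16568 genes, and 24 among those with a lower level in GRdim/dim lungs.

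*Scgb3a1* (chr11:49663610-49665118) encodes a small secretoglobin of the larger airways. It had 88.7, 52.9 and 118 CPM in GR+/+ lungs and 49.0, 26.8 and 47.1 CPM in GRdim/dim lungs. The lowest GR+/+ lung lay only slightly above the highest GRdim/dim lung. Its log2 fold change was −1.08 ± 0.31 (95% interval −1.76 to −0.40), and the edgeR *p* was 0.00528 before and 0.289 after adjustment. DESeq2 gave an adjusted *p* of 0.0285 and called it in 3 of the 6 fits with 1 library left out. The call was lost without GR+/+ replicate 1 (adjusted *p* = 0.153), GR+/+ replicate 3 (0.317) or GRdim/dim replicate 2 (0.205).

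*Muc5b* (chr7:141839070-141873084) encodes the gel-forming mucin on which mucociliary clearance of the mouse airway depends. Its levels were 46.0, 46.2 and 83.6 CPM in GR+/+ lungs and 16.8, 29.9 and 36.6 CPM in GRdim/dim lungs. The genotypes did not overlap, and GR+/+ replicate 3 was above the others. The log2 fold change was −1.08 ± 0.32 (95% interval −1.78 to −0.38), and the edgeR *p* was 0.00631 before and 0.300 after adjustment. With DESeq2 the adjusted *p* was 0.0337, and the call was kept in 1 of the 6 fits with 1 library left out, the fit without GRdim/dim replicate 3. In the other fits the adjusted *p* from DESeq2 was between 0.0514, without GR+/+ replicate 1, and 0.400, without GR+/+ replicate 3.

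*Bpifa1* (chr2:154142880-154149219) encodes SPLUNC1, a secreted airway protein that binds bacterial lipids. It had 88.6, 43.4 and 27.1 CPM in GR+/+ lungs and 57.6, 2.95 and 7.88 CPM in GRdim/dim lungs. GRdim/dim replicate 1 was within the GR+/+ range, and the other GRdim/dim lungs were below it. Its log2 fold change was −1.22 ± 1.19 (95% interval −4.26 to 1.83; adjusted *p* = 0.832, edgeR), so the spread between mice was as large as the difference. Without GRdim/dim replicate 1 it was −3.30, with an adjusted *p* of 0.172 from edgeR and of 0.00744 from DESeq2. With all 6 libraries it was −2.58 ± 0.92 with a covariate for sex-linked expression (adjusted *p* = 0.550, edgeR). *Bpifa1* was called only by DESeq2 without GRdim/dim replicate 1 among the alternatives run.

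**Figure D2:**
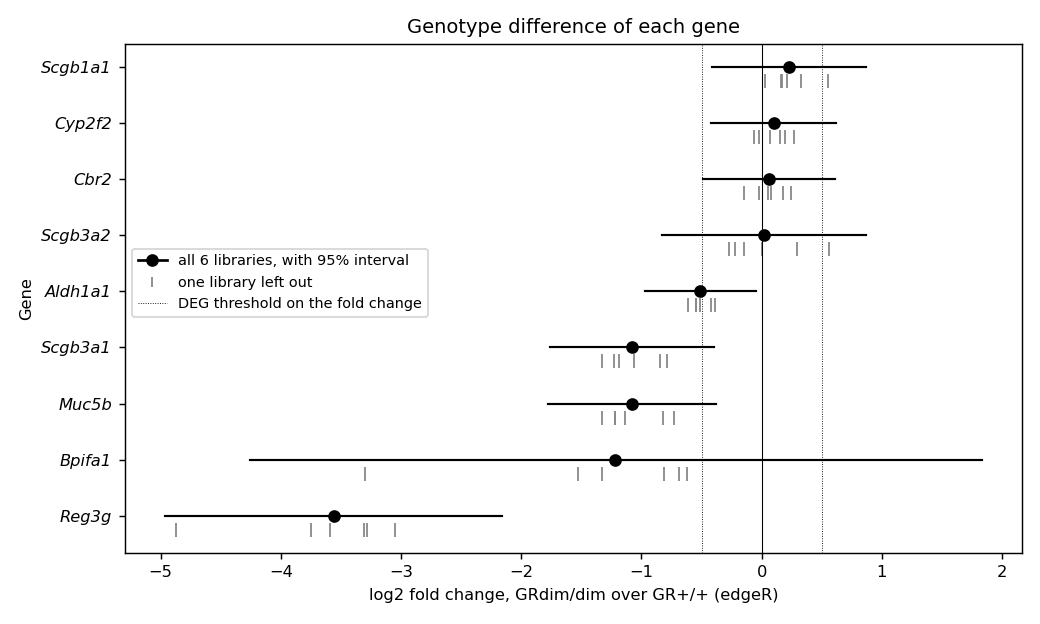
Log2 fold change of GRdim/dim over GR+/+ for each of the 9 genes from edgeR, with the 95% interval as a black line and the value with each library left out as grey ticks. Dotted lines mark the fold threshold of 0.5 in either direction. The intervals of *Reg3g*, *Muc5b*, *Scgb3a1* and *Aldh1a1* lie below 0, and that of *Bpifa1* runs from −4.26 to 1.83.

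In bulk lung RNA, fewer cells of a type and less RNA per cell cannot be told apart. *Scgb1a1* marks the same cells as several of the other genes, so each gene was also set against *Scgb1a1* in its own library. *Scgb1a1* itself had a log2 fold change of 0.23, which moves all 8 ratios down in GRdim/dim lungs. Which cells held each transcript was not measured, so a ratio cannot separate cell number from RNA per cell. The log2 ratio of *Aldh1a1* to *Scgb1a1* was −3.26, −3.39 and −3.80 in GR+/+ and −4.24, −4.32 and −4.25 in GRdim/dim lungs, a difference of −0.79. The difference was −1.34 for *Scgb3a1*, −1.37 for *Muc5b* and −3.88 for *Reg3g*. These 4 ratios were lower in every GRdim/dim lung than in every GR+/+ lung (two-sided exact permutation test, *p* = 0.1 for each, which is the lowest this design allows, and 0.2 after adjustment over 8 ratios). They belong to the same 4 genes whose CPM did not overlap. The ratios of *Scgb3a2* (difference −0.21, exact *p* = 0.4), *Cyp2f2* (−0.20, exact *p* = 0.3), *Cbr2* (−0.25, exact *p* = 0.3) and *Bpifa1* (−2.36, exact *p* = 0.3) overlapped between genotypes.

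**Figure D3:**
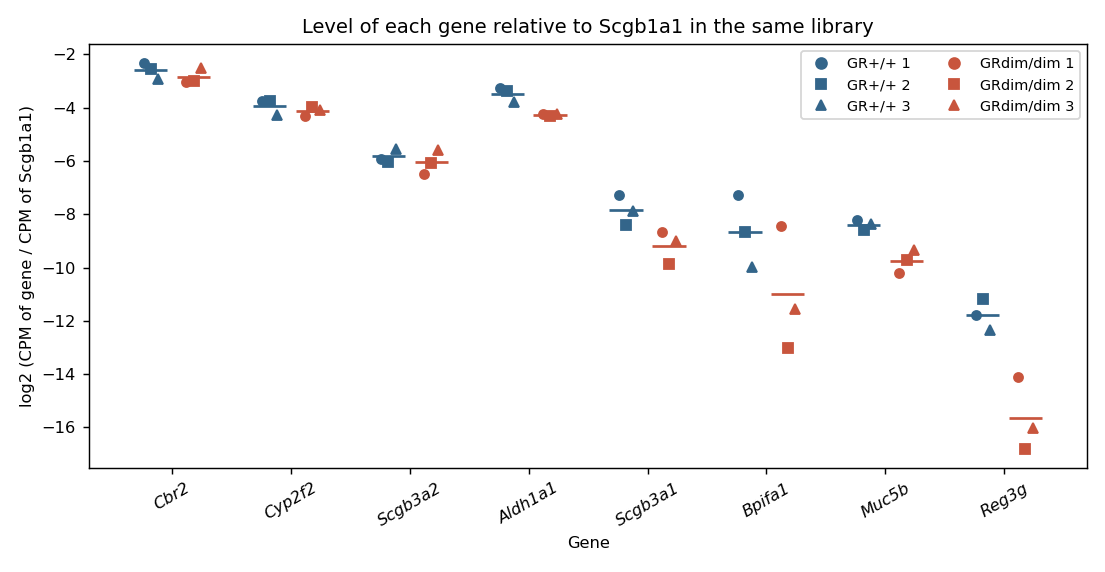
Log2 ratio of the CPM of 8 genes to the CPM of *Scgb1a1* in the same library, with GR+/+ in blue, GRdim/dim in red and a line at the mean of each genotype. The *Aldh1a1* ratio of the 3 GRdim/dim lungs lies between −4.32 and −4.24, below all GR+/+ lungs, and the ratios of *Cbr2*, *Cyp2f2* and *Scgb3a2* overlap.

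Per kb of gene length the order of the 9 genes was *Scgb1a1*, *Cbr2*, *Cyp2f2*, *Scgb3a2*, *Aldh1a1*, *Scgb3a1*, *Bpifa1*, *Muc5b* and *Reg3g*, the same in both genotypes. The mean level fell from 41380 CPM per kb for *Scgb1a1* to 2.60 for *Reg3g* in GR+/+ lungs, and from 48570 to 0.222 in GRdim/dim lungs. In that order *Cyp2f2* and *Scgb3a2*, and *Scgb3a2* and *Aldh1a1*, had overlapping ranges in both genotypes. *Scgb3a2* was above *Aldh1a1* in 4 of the 6 libraries. *Bpifa1* and *Muc5b* overlapped in GRdim/dim lungs, and *Muc5b* and *Reg3g* in GR+/+ lungs.

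The Pearson correlation of log2 CPM is given as a description over 6 libraries, which differ in depth and genotype. It was 0.91 for *Scgb3a2* with *Cbr2*, 0.95 for *Muc5b* with *Aldh1a1*, and 0.80 for *Bpifa1* with *Reg3g*. It was −0.86 for *Cyp2f2* with *Bpifa1* and −0.72 for *Scgb1a1* with *Bpifa1*. With the genotype means removed, the 15 pairs among *Scgb1a1*, *Scgb3a2*, *Cyp2f2*, *Cbr2*, *Muc5b* and *Aldh1a1*, grouped after their values were seen, had correlations of 0.65 to 0.98, against 0.11 to 0.95 before. *Scgb1a1* with *Aldh1a1* went from 0.11 to 0.96 and *Scgb3a2* with *Muc5b* from 0.56 to 0.98. *Bpifa1* had −0.96 with *Cyp2f2* and 0.79 with *Reg3g*. *Bpifa1* was highest in GR+/+ replicate 1, the lung with the lowest *Scgb1a1*.

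The 5 genes with the levels most like the mean pattern of the 9 genes, among 12228 genes of at least 5 CPM, were *Akip1* (*r* = 0.994 over 6 libraries), *Mcee* (0.993), *Cfap45* (0.991), *Ddo* (0.989) and *Gabarapl1* (0.985). With the genotype means removed these 5 genes still had *r* of 0.958 to 0.980, but 5 other genes ranked higher. With 6 libraries and this many genes such values are a description.

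Relatives in the same gene families were measured as well. *Bpifb1*, a secreted relative of *Bpifa1* in goblet and gland cells, had 80.5 ± 13.5 CPM in GR+/+ and 33.1 ± 23.7 CPM in GRdim/dim lungs (log2 fold change −1.28, adjusted *p* = 0.435, edgeR). *Muc4*, a membrane mucin, had 38.5 ± 16.3 and 16.6 ± 3.14 CPM (log2 fold change −1.22; adjusted *p* = 0.196 with edgeR and 0.00614 with DESeq2). In *Muc1* (log2 fold change −0.12), the gel-forming mucin *Muc5ac* (−0.52), *Muc6* (−0.80), *Muc16* (0.32) and *Muc20* (0.25) the genotypes overlapped. *Aldh1a7*, the closest relative of *Aldh1a1*, had a log2 fold change of −0.16, and *Aldh1a2* and *Aldh1a3*, which also make retinoic acid, of 0.22 and 0.61. *Scgb1c1* (0.67), *Bpifb5* (−0.50), *Cbr1* (−0.30), *Cbr3* (−0.08) and *Cbr4* (−0.25) were also not DEGs. No relative of *Reg3g* reached 1 CPM.

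Transcripts of *Cyp2f2* and *Cbr2* share 10.9% and 15% of their windows of 31 bases with another gene, *Aldh1a1* shares 5.70% (mostly with *Aldh1a7*), *Muc5b* 0.211% and *Reg3g* 0.231%, so reads of the first 3 could have been split. The antisense gene *Gm15883* overlaps *Cyp2f2* by 274 bases and had 28 to 242 counts, and the use of strand in counting is not given in the sources used here.

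Of 28 other club cell genes, 27 were tested, 20 were lower and 7 higher in GRdim/dim lungs, with a median log2 fold change of −0.31 and 0 DEGs. At an unadjusted *p* under 0.05, 5 were lower and 1 was higher. The libraries did not overlap for 6 of the 27 genes tested, all lower in GRdim/dim lungs, against 7.05% of all genes tested. The summed level of the list was 9828, 9912 and 11130 CPM in GR+/+ and 7431, 7935 and 7883 CPM in GRdim/dim lungs, without overlap. This sum is weighted toward abundant genes such as *Fmo2*, and no background for such a sum was computed. DESeq2 called 2 lower, *Fmo2*, a flavin monooxygenase (1971 ± 310 and 1092 ± 181 CPM; log2 fold change −0.85; adjusted *p* = 0.00956), and *Gsta3*, a glutathione transferase (299 ± 20.4 and 181 ± 35.4 CPM; −0.72; adjusted *p* = 0.0404). *Selenbp1*, a selenium-binding protein, had 1380 ± 76.2 and 1105 ± 39.4 CPM (−0.32; adjusted *p* = 0.636, edgeR). *Gsta3* was named after its values were seen.

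Of 22 goblet and gland genes, 12 were tested, 8 were lower and 4 higher, with a median of −0.25 and 0 DEGs. At an unadjusted *p* under 0.05, 3 were lower and 0 higher. The libraries did not overlap for 4 of the 12 genes tested, all lower in GRdim/dim lungs, against 7.05% of all genes tested. DESeq2 called 2 lower, *Muc4* and *Gp2*, a glycoprotein with 13, 8 and 88 counts in GR+/+ and 3, 2 and 3 counts in GRdim/dim lungs, which was named after its values were seen and was too low to be tested with edgeR (log2 fold change −3.27; adjusted *p* = 0.0306, DESeq2). Of 16 transcription factors of secretory cells, 11 were lower and 5 higher, with a median of −0.23 and 0 DEGs. Among them *Nkx2-1*, needed for lung epithelial identity, had 280 ± 21.1 CPM in GR+/+ and 331 ± 44.9 CPM in GRdim/dim lungs, and *Cebpd* had 312 ± 46.7 and 589 ± 267 CPM. Of 13 genes of the retinoic acid pathway that were tested, 7 were lower and 6 higher, with a median of −0.08, no DEG and none with an unadjusted *p* under 0.05. Of 16 genes tested in interleukin-22, interleukin-17 and interleukin-6 family signalling, the pathways known to induce *Reg3g*, 10 were higher and 6 lower, with a median of 0.31 and 0 DEGs. The cytokine genes *Il22* and *Il17a* had 0 counts in every library and *Il17f* had 1 to 4, so these were not tested. All 3 were named after their values were seen. Among the 16 genes tested, the genotypes did not overlap for 9 with GRdim/dim higher and for 2 with GRdim/dim lower. Of all genes tested, 7.05% were lower without overlap. The share that was higher without overlap was not counted, so the 9 genes have no background to be read against. DESeq2 called 1 gene of this list, *Osm*, which encodes the cytokine oncostatin M and was named after its values were seen. *Osm* had 3.13 ± 0.92 CPM in GR+/+ and 12.2 ± 6.61 CPM in GRdim/dim lungs (log2 fold change 1.96; adjusted *p* = 0.131 with edgeR and 0.000199 with DESeq2), and DESeq2 called it in all 6 fits with 1 library left out. *Stat3* was 355 ± 36.1 CPM in GR+/+ and 446 ± 51.8 CPM in GRdim/dim lungs, without overlap but with an adjusted *p* of 0.622 (edgeR), and the receptor subunit *Il6st* had 650 ± 43.4 and 535 ± 114 CPM.

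Of 15 glucocorticoid-induced genes, 9 were lower and 6 higher, with a median of −0.23, and DESeq2 called 5 lower. The only edgeR DEG of the 208 genes tested in all 17 lists was *Pdk4*, a kinase that limits glucose oxidation and a GR target, with 66.5 ± 5.12 CPM in GR+/+ and 23.3 ± 2.02 CPM in GRdim/dim lungs (log2 fold change −1.51, adjusted *p* = 0.00931). Its call was lost in edgeR without GR+/+ replicate 1 or replicate 2, where the adjusted *p* reached at most 0.0507.

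**Figure D4:**
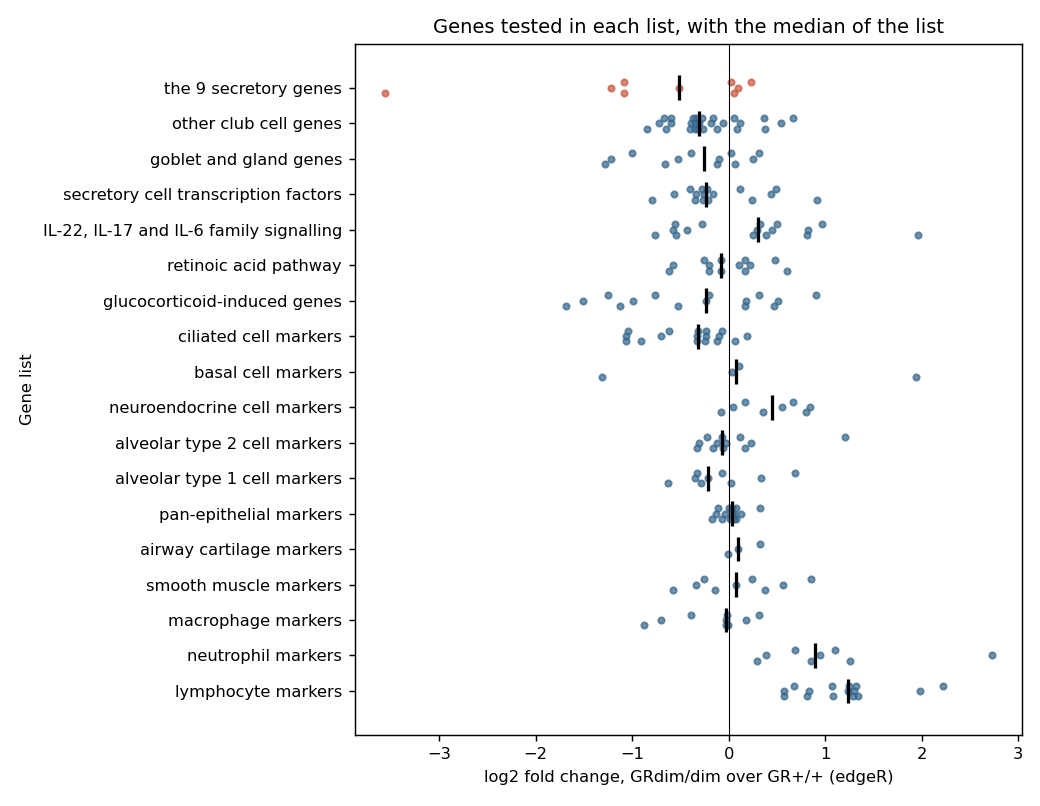
Log2 fold change of GRdim/dim over GR+/+ from edgeR for each gene tested in the 9 secretory genes (red) and in 17 other lists (blue), with a black line at the median of each list. The medians are −0.51 for the 9 genes, −0.31 for the other club cell genes, 0.04 for the pan-epithelial markers and 1.24 for the lymphocyte markers.

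Markers of other cells were measured beside these genes. Among 17 ciliated cell markers, 15 were lower and 2 higher, with a median log2 fold change of −0.32. At an unadjusted *p* under 0.05, 2 of these were lower and 0 higher. The summed level of the ciliated cell markers overlapped between genotypes. It was 697, 734 and 1261 CPM in GR+/+ replicates 1, 2 and 3, and 509, 846 and 842 CPM in GRdim/dim replicates 1, 2 and 3. The median log2 fold change was 0.08 for 4 basal cell markers, 0.46 for 8 neuroendocrine cell markers, −0.06 for 12 alveolar type 2 and −0.21 for 9 alveolar type 1 cell markers. It was 0.04 for 15 pan-epithelial markers, of which none had an unadjusted *p* under 0.05, and their summed level was 2430 to 3766 CPM in GR+/+ and 2337 to 3933 CPM in GRdim/dim lungs. For tissue sampled beside the airway, it was 0.10 for 3 airway cartilage markers and 0.08 for 9 smooth muscle markers, and it was −0.03 for 9 macrophage markers. Only 3 of 12 listed cartilage markers had enough reads to be tested. The summed level of the 12 was 7.71 to 8.21 CPM in GR+/+ and 5.55 to 10.9 CPM in GRdim/dim lungs. For the smooth muscle markers the sum was 1111, 1069 and 513 CPM in GR+/+ and 778, 902 and 945 CPM in GRdim/dim lungs. The amount of large airway in each sample was not tested. All 8 neutrophil markers tested were higher, with a median of 0.90 and a summed level of 256 to 511 CPM in GR+/+ and 367 to 1157 CPM in GRdim/dim lungs. All 15 lymphocyte markers were higher, 10 of them at an unadjusted *p* under 0.05, with a median of 1.24 and a summed level of 97.8 to 204 CPM and 242 to 762 CPM. The part of these cells in the levels of the 9 genes was not tested. Among the lists of this paragraph, DESeq2 called 1 alveolar type 2, 3 neutrophil and 2 lymphocyte markers higher and 1 macrophage marker lower. The alveolar type 2 marker was *Cxcl15*, named after its values were seen. It had 502 ± 95.8 CPM in GR+/+ and 1159 ± 228 CPM in GRdim/dim lungs (log2 fold change 1.21; adjusted *p* = 0.0961 with edgeR and 5.67e-05 with DESeq2).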

How the data were processed

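Poly(A)-captured RNA of 6 lungs, 1 library per mouse, was sequenced by a service provider. What the authors deposited are unnormalized counts, as whole numbers, for 54532 genes. The submitters' processing notes name the mm10 build and DESeq2. The aligner, counting tool, annotation release and use of strand are not given in the sources used here. Groups and replicate numbers were taken from the sample titles. Replicates of a genotype differed by 20.6 to 73.5 in chi-square per degree of freedom, more than sampling noise, and were used as separate samples.

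Counts were tested in R 4.3.3 with edgeR 4.0.16 (filterByExpr, TMM, robust glmQLFit and glmQLFTest, genotype only) with Benjamini-Hochberg adjustment over 16568 genes. DESeq2 1.42.0 with default settings was an alternative, as were RLE scaling, no filter, at least 10 counts in every library, the replicate block, a sex-linked covariate, no fold threshold and each library left out. Standard errors were calculated from the log2 fold change and the F statistic of the edgeR test, and 95% intervals use its degrees of freedom. Both therefore restate the unadjusted edgeR *p* on the log2 scale. Log2 ratios used a prior count of 2, and exact permutation tests were enumerated in scipy 1.17.1. The procedure was tested on simulated data. Levels per kb divide CPM by the deposited gene length. Gene coordinates are those in the deposited file.

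The named genes are the 9 genes, every DEG in 17 lists and the 2 most abundant genes of each list, the 5 genes most correlated with the mean pattern, and relatives by symbol of at least 1 CPM. Of the abundant list genes, those of the club cell, goblet, transcription factor and interleukin lists are given with values. The 9 genes and the lists were chosen with earlier results of these data known. RefSeq promoters matched 6 of the 9 genes.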

Additional observations from a re-analysis of the deposited data

How the results depend on the processing

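The levels per kb kept their order with unscaled CPM, and the number of ratios without overlap stayed at 4 with a prior count of 0.5 and was 4 to 6 with 1 library left out. Over all genes the number of DEGs was 28, and it was 522 without a filter on low counts, 274 with DESeq2, 4 (without GR+/+ replicate 2) to 22 with edgeR and 175 to 384 with DESeq2 when 1 library was left out. Of the 9 secretory genes 0 were DEGs, and 3 without a filter and 3 with DESeq2, which were *Reg3g*, *Scgb3a1* and *Muc5b* in the DESeq2 fit. With 1 library left out the number was 0 to 1 with edgeR and 1 to 3 with DESeq2. Of the list genes 1 was a DEG, 32 without a filter, 17 with DESeq2 and 2 with a covariate for sex-linked expression, and 0 to 3 with edgeR and 8 to 24 with DESeq2 when 1 library was left out. The 5 genes most like the mean pattern were 5 others with the genotype means removed (0 shared), although the first 5 still had *r* of 0.958 to 0.980. The cause of these changes was not tested.

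With the main settings 0 of the 9 genes were DEGs, so no value could lose the threshold. Of 161 values of the 9 genes under alternatives, 128 kept direction and side of the threshold, 18 passed it and 15 changed sign. None of the 15 was called. These were *Scgb3a2* (−0.27 to 0.56), *Cyp2f2* (−0.07 to 0.27) and *Cbr2* (−0.15 to 0.24), given as the range of log2 fold changes over both tools with 1 library left out. Requiring 10 counts in every library gives no value for *Reg3g*.

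The replicate numbers of the genotypes were used as a replicate block as an alternative. Libraries with the same number deviated together with correlations of 0.22, 0.04 and −0.05, so the numbers do not pair the mice. The block gave 34 DEGs over all genes, 0 of the 9 genes and 3 list genes, and moved *Bpifa1* to a log2 fold change of −2.0 ± 0.64 (adjusted *p* = 0.386, edgeR). The DESeq2 fits with a library left out were chosen after seeing the data. The number of 3 mice per genotype limits the precision for all 9 genes, and counting error matters for *Reg3g*.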
